A study of Mus musculus with 24 samples.

Results

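CpG-dense intronic CpGs are the cytosines of CpG dinucleotides that lie inside a gene, in no exon and more than 1000 bases from every transcription start, in a stretch of DNA rich in CpGs. The members were taken by position alone, as intronic cytosines of the GENCODE M21 annotation with at least 6 CpGs in the window of mm10 sequence that reaches 50 bases to either side, and the rule uses no methylation value. There were 18041 such cytosines among the 762182 of the table, in 2790 host genes. The 121762 intronic cytosines with fewer CpGs in the same window, called CpG-sparse here, served for comparison.

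Methylation was measured by reduced representation bisulfite sequencing (RRBS), which sequences bisulfite-converted DNA from the fragments an enzyme cuts at CCGG, in micro-dissected dentate gyrus of the hippocampus. All mice were female C57BL/6JRj animals. There were 5 Young STD mice (1.5 months old), 7 Aged STD mice (14 months) and 7 Aged ENR mice (also 14 months), where STD stands for standard cages and ENR for environmental enrichment, a large cage with rearranged toys in which the Aged ENR mice had lived since youth. The tissue holds granule neurons, other neurons and glia together, and its identity could not be checked against marker genes, since the values are methylation percentages. Young ENR mice were not analysed here.

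In mammals, most CpGs outside dense stretches carry a methyl group, and methylated CpGs have been lost over evolution because they mutate readily. Dense stretches (CpG islands) are mostly kept free of methylation, at promoters and also inside genes, where they can mark alternative starts, enhancers or the bodies of developmental genes. Other kinds of dense stretch are known to be methylated, namely silenced transposable repeats, imprinted control regions on a single parental copy, and islands on the inactive X chromosome of females.

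Some windows show what this set is made of. Each line gives the window around a member from the GRCm38 (mm10) genome, read 5′ to 3′ on the strand of the measured cytosine, with every CpG in capitals. The Tns3 window (chr11:8624467-8624567, plus strand, 16 CpGs) and the Pax7 window (chr4:139831733-139831833, minus strand, 16 CpGs) stand for dense, nearly unmethylated introns. The Bcor window (chrX:12087503-12087603, plus strand, 17 CpGs) is X-linked. The Kcnq1 window (chr7:143389262-143389362, minus strand, 9 CpGs) lies in an imprinted gene, the Sgcd window (chr11:47427841-47427941, minus strand, 6 CpGs) lies wholly in masked repeat, and the Clybl window (chr14:122227362-122227462, plus strand, 10 CpGs) belongs to a cluster that differed widely between mice.
Tns3: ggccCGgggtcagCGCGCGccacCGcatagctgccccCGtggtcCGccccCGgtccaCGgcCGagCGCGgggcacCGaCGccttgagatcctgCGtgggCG
Pax7: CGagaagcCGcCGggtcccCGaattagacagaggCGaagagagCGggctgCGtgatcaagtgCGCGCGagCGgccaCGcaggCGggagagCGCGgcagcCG
Bcor: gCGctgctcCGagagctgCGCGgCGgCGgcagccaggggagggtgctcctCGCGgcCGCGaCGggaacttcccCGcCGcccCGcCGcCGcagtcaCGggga
Kcnq1: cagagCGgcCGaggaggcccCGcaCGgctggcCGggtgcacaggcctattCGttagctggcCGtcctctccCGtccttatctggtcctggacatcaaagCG
Sgcd: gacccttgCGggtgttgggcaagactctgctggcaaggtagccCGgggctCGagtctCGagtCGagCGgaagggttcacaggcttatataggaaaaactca
Clybl: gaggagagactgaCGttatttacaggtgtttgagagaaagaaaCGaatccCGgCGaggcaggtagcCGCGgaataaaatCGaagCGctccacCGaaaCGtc
The central cytosines of these windows had mean levels over the mice measured of 4.23% in Tns3, 1.04% in Pax7, 2.81% in Bcor, 31.8% in Kcnq1, 92.3% in Sgcd and 18.1% in Clybl. The windows with fewer CpGs had the higher levels, apart from Bcor, which with 17 was above Pax7 with 16.

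Most CpG-dense intronic CpGs were close to unmethylated. Over the mice with a value, 12002 members (66.5%) had a mean level under 20%, 3678 (20.4%) had 80% or more, and 2361 (13.1%) lay between. The mean over all members was 27.7% and the median 5.33%. CpG-sparse intronic CpGs had a mean of 54.8% and a median of 61.8%, with 27.8% of them under 20% and 38.5% at 80% or more. These are descriptions over cytosines, which share fragments and mice and are not replicates.

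The level was lower the more CpGs surrounded the cytosine. Outside repeats, the mean was 30.8% with 6 CpGs in the window (5453 cytosines), 22.1% with 7, 12.997% with 8, 9.46% with 9, 5.12% with 10 to 11, 4.13% with 12 to 14 and 2.90% with 15 or more (410 cytosines). The same order held below the limit of the set, where CpG-sparse intronic CpGs outside repeats had a mean of 55.7% with a single CpG and 38.7% with 5. The means with 5 and 6 CpGs, just outside and just inside the set, were thus 38.7% and 30.8%.

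**Figure D1:**
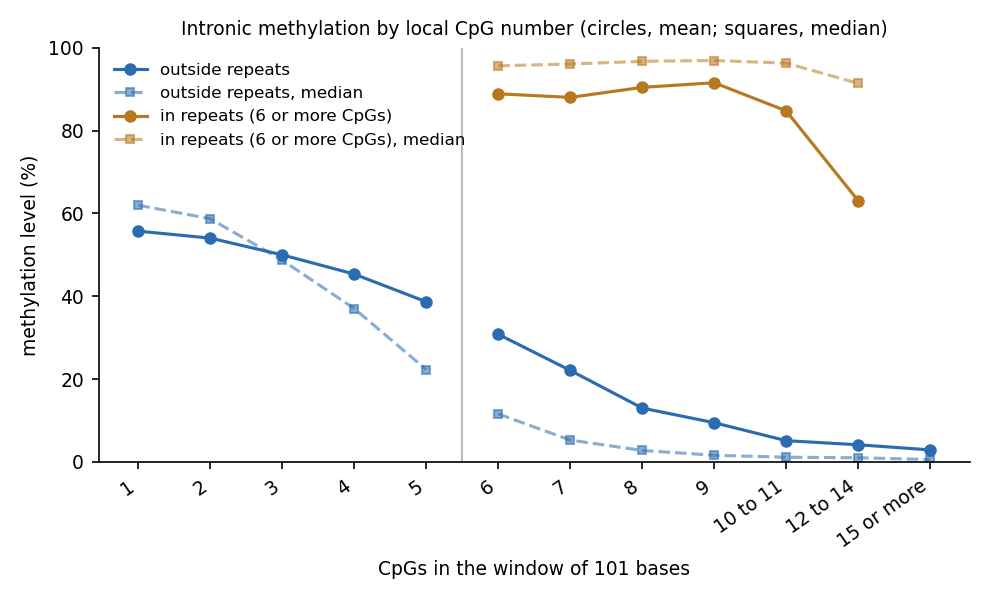
Methylation level (%, y axis) of intronic CpGs by the number of CpGs in the window (x axis); circles are means and squares medians over cytosines of their mean level over mice, in blue outside repeats and in brown inside repeats, and the grey line separates CpG-sparse from CpG-dense. Outside repeats the mean went from 55.7% with 1 CpG to 2.90% with 15 or more, whereas inside repeats it was 88.9% with 6 and 63.1% with 12 to 14.

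Members inside repeats were an exception to this order. Repeats were taken as windows of which at least 50% is soft-masked in the genome sequence, and the kind of repeat was not given there. The 2306 masked members (12.8%) had a mean of 88.6% and a median of 96.1%, and 87.9% of them were at 80% or more. Their level did not follow density up to 9 CpGs, with means of 88.9%, 88.0%, 90.4% and 91.6% for 6, 7, 8 and 9 CpGs. Beyond that the mean was lower, at 84.8% with 10 to 11 CpGs (162 cytosines) and 63.1% with 12 to 14 (26 cytosines, median 91.4%). Outside repeats, 75.6% of the 15735 members were under 20% and 10.49% at 80% or more. Masked CpG-sparse intronic CpGs had a mean of 81.8%.

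Sequence copies gave a similar picture. The central 31 bases occurred once in the genome for 16398 members, which had a mean of 21.9%. Members with 2 to 9 copies had a mean of 75.1% (605 cytosines), those with 10 to 99 copies 87.9% (413) and those with 100 or more 92.6%. In Sgcd, a sarcoglycan gene of the membrane complex of muscle, the central sequence of the masked window shown above had 3476 copies, and the cytosine had 51.7% to 100% in the 19 mice with a median of 97.9% in Young STD mice. Copies were counted over 31 bases, which is shorter than a read. Whether values of these members stand for more than 1 place in the genome was not tested. On the Y chromosome, 17 members each had a value in 16 to 19 of these female mice, and where those reads came from was not tested. Of these, 5 were masked and 12 were not, with mean levels of 89.1% and 51.6%, and 10 of the 17 had more than 1 copy.

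**Figure D2:**
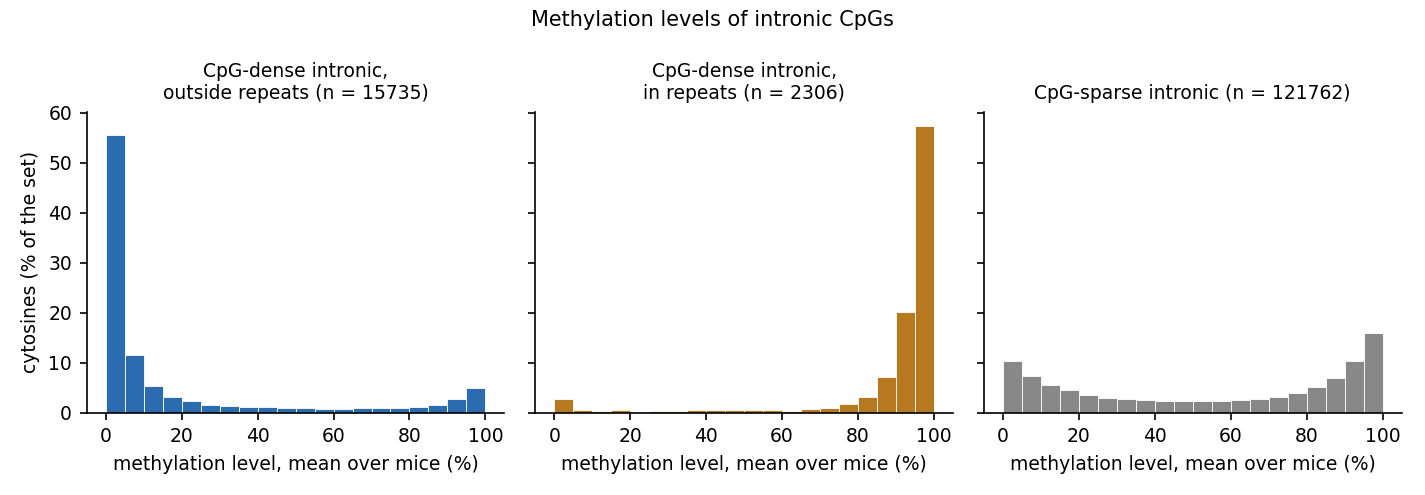
Share of cytosines (%, y axis) by methylation level in steps of 5 points (x axis, mean over mice) for CpG-dense intronic CpGs outside repeats, inside repeats and for CpG-sparse intronic CpGs. Outside repeats 75.6% of the dense members were under 20%, inside repeats 87.9% were at 80% or more, and the CpG-sparse set was spread over both ends.

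A small group of masked members was unmethylated. Of the masked members, 102 had a level under 20%, and 80 of these had a single copy of their central bases (78.4%, against 35.1% of the masked members at 80% or more). They also lay closer to genes' starts, with 48.0% of them within 2000 bases against 4.34% of the highly methylated ones.

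Distance from the transcription start went with the level as well. Outside repeats, members up to 2000 bases away had a mean of 7.47% (5583 cytosines), those beyond that and up to 5000 bases 17.5% (3541), those up to 20000 bases 26.1% (4366) and those farther away 34.5% (2245). The members were nearer to a start than other intronic CpGs, with a median distance of 4483 bases against 9499 for the CpG-sparse set. In protein-coding hosts, which held 83.1% of the members, the mean was 26.7%, and in the other hosts it was 32.5%.

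The windows were searched on both strands for short motifs, without regard to overlap. The MspI site CCGG, at which RRBS fragments are cut, was in 87.8% of member windows, 86.9% of CpG-sparse windows and 84.7% of the windows of all CpGs. The Sp1 box GGGCGG, bound by the activator Sp1, was in 19.8% of member windows, against 3.32% of CpG-sparse and 16.6% of all windows. The motif TGCCGC of ZFP57, a protein that protects imprinted methylation, was in 8.04%, 1.75% and 6.62%. Both motifs hold a CpG, so the rule on CpG number by itself favours them in member windows. Among windows with 8 or 9 CpGs, the Sp1 box was in 21.7% of member windows and 25.97% of all windows, and the ZFP57 motif in 10.1% and 9.998%. Outside repeats, members with a Sp1 box had a mean of 10.3% and those without 21.0%. At a like density of 8 or 9 CpGs, these means were 7.91% (807 members) and 12.7%. The core motif GCGCATGC of NRF1, a factor known to bind unmethylated DNA, was in 0.704% of member windows. The members outside repeats that had it averaged 45.7%, against 18.6% for the others, and at 8 or 9 CpGs 18 of them averaged 31.5% against 11.5%. Neighbouring members share a window and thus a motif, so these counts are not of independent sites, and a match is only a match of letters.

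Some hosts held long runs of members. The most members, 362, lay in Gm20388, an annotated gene on chromosome 8 that overlaps several others, among them Gse1, a coiled-coil protein gene with 97 members, so that a member can have more than 1 host. Bcor, an X-linked co-repressor of transcription, held 253 members, Rnf220, a ubiquitin ligase, held 111, and Pax7, a developmental transcription factor, held 99. Mean levels were 20.3% in Gm20388, 8.44% in Bcor, 7.07% in Rnf220, 2.16% in Pax7 and 6.21% in Gse1. In Pax7 all 99 members were under 20%, and the highest was at 8.13%.

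Members were also joined into clusters, runs of at least 3 member cytosines no more than 100 bases apart, which gave 2205 clusters with 14680 members. Of these clusters, 1353 had a mean under 20%, 538 had 80% or more and 314 lay between. The clusters with most cytosines were unmethylated in every group. Nrg2, a growth factor gene of the neuregulin family, had the longest with 63 cytosines and a mean of 1.81% over 18 mice (0.290% to 3.8%). The cluster of Hmx1, a homeobox transcription factor (chr5:35397177-35397733, 38 cytosines), had 1.62%, that of Tns3, an adhesion protein (chr11:8624517-8624726, 37 cytosines), had 0.823%, that of Tesc, a calcium-binding protein (chr5:118028872-118029064, 37 cytosines), had 1.58%, and that of Ebf3, a neuronal transcription factor (chr7:137309376-137309803, 35 cytosines), had 2.40%. In Hmx1, Young STD mice had 0.769% ± 0.701 (SD, n = 5), Aged STD mice 1.999% ± 0.646 (SD, n = 6) and Aged ENR mice 1.96% ± 0.772 (SD, n = 6), with overlapping groups, and the Aged STD minus Young STD difference of 1.23 points (SE 0.592) did not pass limma's test (adjusted p = 0.852).

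The X-linked members outside repeats are described separately, with no test, as neighbouring members are not independent. Of 450 X-linked members, 222 (49.3%) had a level of 10% to 60%, against 2730 of 15273 autosomal members (17.9%). Bcor held 251 of the 450. Without it, the 199 members of 32 hosts had a mean of 28.1%, a median of 21.3% and 77.4% at 10% to 60%. With at least 8 CpGs in the window, the X-linked members outside Bcor had a median of 18.5% (120 cytosines) and the autosomal ones 1.37% (6824).

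By host, Nhsl2 had a mean of 15.6% over 22 members, with 17 of them at 10% to 60%. Bcorl1, a relative of Bcor, had 19.3% over 12 members, all 12 in that range. Pcdh11x, a protocadherin gene, was low at 5.38% over 10 members. In Bcor, 68 of 251 members were at 10% to 60%. X-linked members carried few values, as 11 of the 450 were measured in every mouse.

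The level per mouse, over the X-linked members that mouse had values for, outside Bcor was 33.5% ± 3.19 (SD, n = 5) for Young STD, 25.2% ± 12.3 (SD, n = 7) for Aged STD and 28.8% ± 9.01 (SD, n = 7) for Aged ENR mice. The lowest values were 11.04%, 12.6% and 15.9% in Aged STD mice 3, 4 and 6, and the highest was 44.1% in Aged STD mouse 5 and in Aged ENR mouse 6. The same mice were lowest and highest among autosomal members, with 10.798%, 11.4% and 11.3% in the former and 26.3% and 25.3% in the latter, and different members were measured in each mouse. Over the 11 X-linked members measured in every mouse, 8 of them in Bcor, the order of the groups was another, with 7.09% ± 3.29 (SD, n = 5) for Young STD, 9.49% ± 4.56 (SD, n = 7) for Aged STD and 13.2% ± 6.32 (SD, n = 7) for Aged ENR mice, and 12 of 19 mice had a lower mean there than over the 1421 autosomal members measured in every mouse. For Bcor, over the members measured in each mouse, the groups had 8.09% ± 3.12 (SD, n = 5), 7.88% ± 1.28 (SD, n = 7) and 9.24% ± 3.81 (SD, n = 7).

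**Figure D3:**
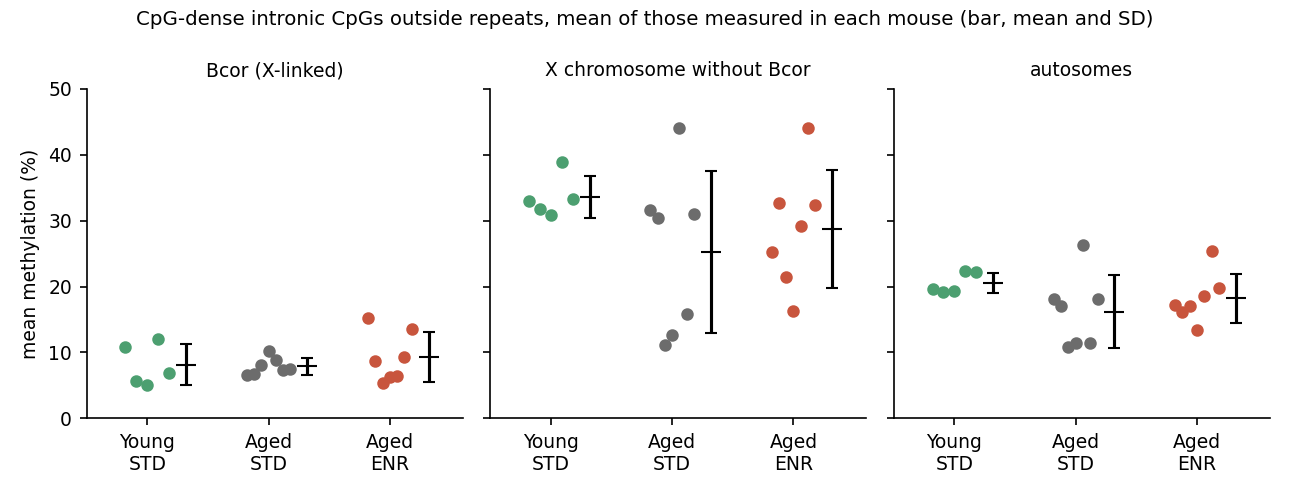
Mean methylation (%, y axis) of CpG-dense intronic CpGs outside repeats in each mouse (points), for Bcor, the rest of the X chromosome and autosomes, over the members measured in that mouse; bars are the group mean and SD for Young STD (5 mice), Aged STD (7) and Aged ENR (7). In all 19 mice the X-linked members outside Bcor were above those of Bcor, and they were above the autosomal mean, with 33.5% against 20.5% in Young STD mice.

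Few imprinted genes held members. Of 54 genes listed as imprinted, 4 held 14 members, of which 8 lay between 20% and 80%. Kcnq1, a potassium channel gene, had 7 members with levels of 21.0% to 86.7%. Its cluster of 5 cytosines (chr7:143389262-143389330) had a value in 13 mice, with 35.7%, 23.5%, 19.2% and 25.3% in 4 Young STD mice, 45.1%, 0% and 3.33% in 3 Aged STD mice and 23.7% to 46.7% in 6 Aged ENR mice. The latter 2 Aged STD mice were below all others, and the groups overlapped. Usp29, expressed from the paternal copy, had 4 masked members at 92.1% to 99.7%. Cdh15, a cadherin gene, had members at 2.43% and 48.0%, and Trappc9, a vesicle transport gene, had 1 at 59.9%.

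Among genes of other lists, developmental transcription factors had the most members, 1008 in 52 of 78 listed genes, with a median level of 2.36% and 91.6% of members under 20%. Pax7, Ebf3 and Lmx1b led this list with 99, 80 and 56 members. Genes of hippocampal neurogenesis and granule neurons had 325 members in 21 of 44 genes and a median of 4.44%, led by the transcription factors Bcl11b (52 members, mean 6.00%), Cux2 (40, 18.2%) and Bcl11a (30, 1.35%). Synaptic receptor, channel and scaffold genes had 358 members in 35 of 73 genes and a median of 4.70%, led by Dlgap2, a scaffold of the postsynaptic density (37, 10.46%), the GABA receptor subunit gene Gabbr2 (33, 18.6%) and the glutamate receptor subunit gene Grik4 (27, 29.8%). In Grik4, 19 members were under 20% and 8 at 80% or more.

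Axon guidance and related genes had 288 members in 28 of 54 genes with a median of 2.68%, led by the receptor Ephb2 (32, 14.99%), the ligand Ntn1 (30, 5.27%) and the exchange factor Tiam1 (26, 13.2%). Glial genes had 78 members in 8 of 39 genes and a median of 1.99%, led by the transcription factors Runx1 (31, 3.90%) and Nkx2-2 (15, 14.0%) and the microglial chemokine receptor Cx3cr1 (20, 1.17%). DNA methylation and chromatin regulators had 141 members in 13 of 48 genes and a median of 2.07%, with Prdm16 (39, 36.3%) and the histone demethylase Kdm6b (25, 0.686%) holding the most. For comparison, the median over all members was 5.33%, and the lists differ in their share of masked members, from 0% for glial to 28.6% for imprinted genes.

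The question of the study design was how age and housing bear on methylation, and it was asked of the members first as a mean per mouse. Over the 1605 members measured in every mouse (8.90%), the values were 19.5%, 19.7%, 19.2%, 20.8% and 22.3% in Young STD mice. In Aged STD mice they ran from 17.4% over a median of 18.8% to 21.4%, and in Aged ENR mice from 18.4% over 19.03% to 20.6%. The group means were 20.3% ± 1.27 (SD, n = 5), 18.97% ± 1.30 (SD, n = 7) and 19.4% ± 0.777 (SD, n = 7). The Aged STD minus Young STD difference was -1.33 points, about as much as the SD within groups, with 5 of 7 below every Young STD mouse and the groups overlapping. The Aged ENR mean was higher than that of Aged STD mice by 0.412 points and the Aged ENR minus Young STD difference was -0.920 points, with 4 of 7 below every Young STD mouse. Single mice moved these differences by over 1.5 times. Without Young STD mouse 5 the Aged STD minus Young STD and Aged ENR minus Young STD differences were -0.826 and -0.415 points. The Aged ENR minus Aged STD difference was 0.155, 0.233 and 0.209 points without Aged STD mouse 3, Aged STD mouse 6 or Aged ENR mouse 6, and 0.815 points without Aged STD mouse 5. Over all members measured in each mouse, which differ between mice, the 3 differences were -5.69, 3.04 and -2.65 points in the order Aged STD minus Young STD, Aged ENR minus Aged STD, Aged ENR minus Young STD. No p-value is given for this mean, since the set was picked with earlier results known.

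The libraries carry numbers of 2 series, 27 and 37. Within series 27, the Aged STD minus Young STD difference was -1.03 points (4 and 3 mice) and within series 37 it was -1.88 points (3 and 2 mice). For Aged ENR minus Aged STD mice the values were 0.363 and 0.477 points, and for Aged ENR minus Young STD mice -0.663 and -1.40 points. Mice also differed in which CpGs had a value. The mean level that these CpGs have in Young STD mice, an index of what each library holds, was 30.6% to 32.3% for Young STD, 19.5% to 38.0% for Aged STD and 23.4% to 36.2% for Aged ENR mice. With it as a covariate the Aged STD minus Young STD difference was -0.442 points and the Aged ENR minus Aged STD difference turned to -0.116 points. The part of either in the differences was not tested further.

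Masked members varied less between groups. Over the 1432 unmasked members measured in every mouse, the means were 12.7% ± 1.34 (SD, n = 5), 11.3% ± 1.38 (SD, n = 7) and 11.8% ± 0.790 (SD, n = 7) in the order Young STD, Aged STD, Aged ENR. Over the 173 masked members they were 83.0% ± 0.813 (SD, n = 5), 82.8% ± 0.774 (SD, n = 7) and 82.6% ± 0.946 (SD, n = 7). By level, the 139 members between 20% and 80% had 51.8% ± 6.70 (SD, n = 5), 42.6% ± 7.92 (SD, n = 7) and 45.2% ± 4.82 (SD, n = 7), with 5 of 7 mice of each aged group below every Young STD mouse. The 1251 members under 20% had 4.04%, 3.36% and 3.66%, and the 215 members at 80% or more had 94.5%, 94.5% and 94.2%.

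CpG-sparse intronic CpGs measured in every mouse had 37.1% ± 2.13 (SD, n = 5), 31.8% ± 3.995 (SD, n = 7) and 33.7% ± 2.37 (SD, n = 7), an Aged STD minus Young STD difference of -5.28 points. Over all CpGs measured in every mouse this difference was -2.03 points. Within a mouse, the members minus the CpG-sparse set came to -18.4 to -15.9 points for Young STD and -17.1 to -9.75 points for Aged STD mice. The 2 sets differ in the share of CpGs at intermediate levels, 139 of 1605 against 3337 of 10788, and at those levels the Aged STD minus Young STD differences were -9.22 points in the members and -10.47 points in the CpG-sparse set. Under 20% they were -0.684 points in the members and -3.74 points in the CpG-sparse set.

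**Figure D4:**
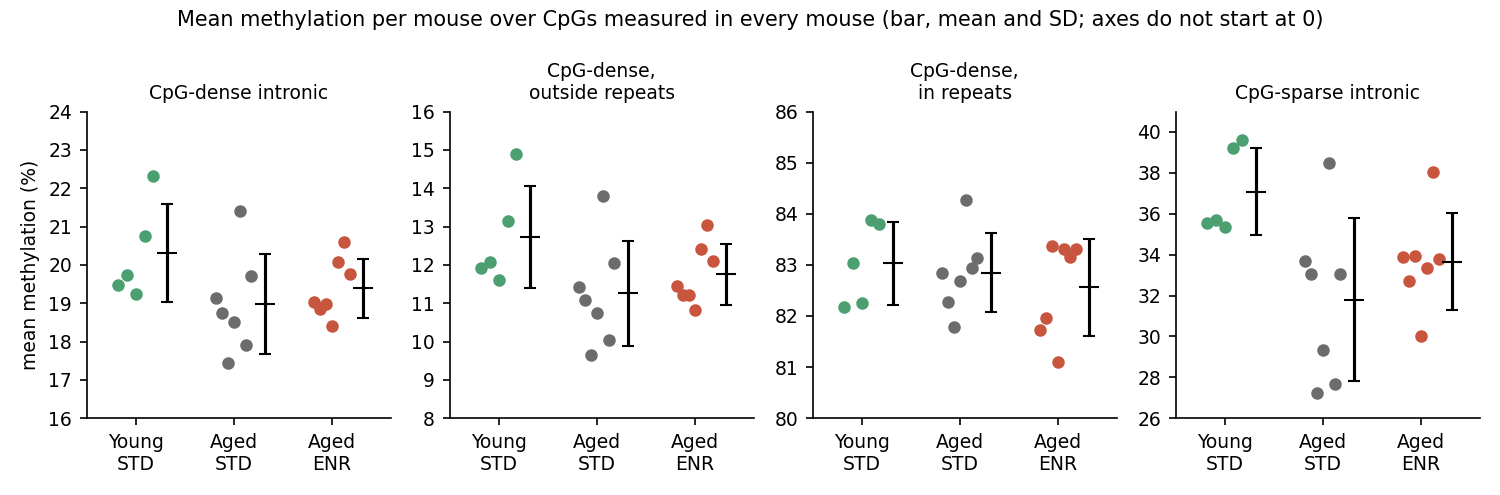
Mean methylation (%, y axis, not starting at 0) in each mouse (points) over the CpGs measured in every mouse, for all CpG-dense intronic CpGs, those outside and inside repeats, and CpG-sparse intronic CpGs; bars are the group mean and SD for Young STD (5 mice), Aged STD (7) and Aged ENR (7). Groups overlapped in each panel, and the means inside repeats stayed between 81.1% and 84.3%.

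Single members were tested with limma over all CpGs of the table, and a call needed both a Benjamini-Hochberg adjusted p below 0.05 and more than 25 points of difference. CpGs with an identical value in all mice compared were not tested, so the shares and medians here leave them out. Of the 12002 members under 20%, 7788 were tested for Aged STD minus Young STD, and of the 3678 at 80% or more, 3042. For Aged STD minus Young STD, 0 of 13191 members tested were called, and over all CpGs 0%. At an unadjusted p under 0.05 there were 503 members (3.81%, all CpGs 4.42%), 390 of them lower in Aged STD mice. A difference over 25 points was seen in 1024 members (7.76%, all CpGs 9.35%), 756 of them lower. By level, the counts were 665 of 2361 members between 20% and 80%, 234 of 7788 under 20% and 125 of 3042 at 80% or more. The levels are means over the same mice, and levels near 0% or 100% leave little room for such a difference. The median difference over the members tested was -0.132 points.

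For Aged ENR minus Aged STD, 0 of 13329 members were called (all CpGs 0%), 305 (2.29%, all CpGs 2.25%) had an unadjusted p under 0.05 by limma, 187 of them higher in Aged ENR mice, and 800 (6.00%, all CpGs 7.15%) differed by over 25 points, 485 of them higher. For Aged ENR minus Young STD, 0 of 13133 members were called (all CpGs 0%), 449 (3.42%, all CpGs 3.95%) had an unadjusted p under 0.05, 321 of them lower in Aged ENR mice, and 855 (6.51%, all CpGs 7.6%) differed by over 25 points. These comparisons share mice, and each is given by its own values. In each of the 3 comparisons, the members' shares were at or below those of all CpGs, apart from 2.29% against 2.25%.

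With the composition index in the fit, the members with an unadjusted p under 0.05 changed their main direction in each comparison (limma, 0 called). All CpGs with such a p turned too. In Aged STD minus Young STD, 11249 of 24899 were lower with the index and 17551 of 23304 without. The counts were 9435 of 16595 and 4230 of 11913 in Aged ENR minus Aged STD. In Aged ENR minus Young STD they were 12345 of 24969 and 13352 of 20652. In the Aged STD minus Young STD comparison 580 members (4.40%, all CpGs 4.72%) had such a p and 217 of them a lower level, and for Aged ENR minus Young STD these were 583 (4.44%, all CpGs 4.78%) and 264. In Aged ENR minus Aged STD, 426 members (3.20%, all CpGs 3.13%) had such a p and 251 of them were lower, where without the index 118 of 305 were lower.

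Clusters gave the same count. By limma, 0 of 2125 member clusters had an adjusted p under 0.05 for Aged STD minus Young STD (all clusters 0.00138%), with 112 (5.27%, all clusters 5.86%) at an unadjusted p under 0.05 and 77 of these lower. For Aged ENR minus Aged STD, 0 of 2147 were called (all clusters 0%) and 97 (4.52%, all clusters 3.85%) had an unadjusted p under 0.05, 62 of them higher. For Aged ENR minus Young STD, 0 of 2134 were called (all clusters 0%) and 117 (5.48%, all clusters 5.46%) had such a p, 77 of them lower. The smallest adjusted p of a member cluster was 0.384, 0.929 and 0.580 in these comparisons. With the composition index in the fit, the main direction of the clusters with an unadjusted p under 0.05 turned as well (limma, 0 called). In Aged STD minus Young STD, 38 of 107 such clusters (5.04%, all clusters 5.15%) were lower. The counts were 53 of 100 (4.66%, all clusters 4.44%) in Aged ENR minus Aged STD and 50 of 120 (5.62%, all clusters 5.21%) in Aged ENR minus Young STD. All clusters turned too. In Aged STD minus Young STD, 1693 of 3733 were lower with the index and 3027 of 4250 without. For Aged ENR minus Aged STD these were 1720 of 3229 and 1099 of 2796, and for Aged ENR minus Young STD 1873 of 3795 and 2498 of 3981.

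Groups rarely separated. Among members with a value in every mouse compared, 8 of 2350 (0.340%, all CpGs 0.356%) had no overlap for Aged STD against Young STD, all 8 with lower values in the aged mice. The counts were 0 of 2467 (all CpGs 0.0136%) for Aged ENR against Aged STD, and 6 of 2467 (0.243%, all CpGs 0.275%) for Aged ENR against Young STD. For clusters the counts were 1 of 301 (0.332%, all clusters 0.573%), 0 of 314 (all clusters 0.044%) and 0 of 343 (all clusters 0.411%). Among clusters of at least 5 cytosines they were, in the same order, 0 of 202 (all such clusters 0.490%), 0 of 215 (0.0119%) and 0 of 214 (0.347%). The next named items were chosen after their values were seen.

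The separate cluster lay in Gm12514, a gene model of unknown role (chr4:55208365-55208402, 3 cytosines). Its values were 44.8%, 43.6%, 49.3%, 63.4% and 47.6% in Young STD mice, 15% to 37.2% with a median of 26.2% in Aged STD mice and 8% to 74.9% with a median of 32.3% in Aged ENR mice. Aged STD mice were all lower than Young STD mice, by 22.5 points (SE 7.83, limma, unadjusted p = 0.0131, adjusted p = 0.756), and Aged ENR mice covered the range of both.

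In Nkain1, which encodes a partner of the sodium pump, 2 member cytosines separated Aged STD from Young STD mice. At the first (chr4, position 130569025, plus strand), Young STD mice had 58.1%, 64.6%, 87.8%, 76.0% and 66.0%, and Aged STD mice had 0% to 23.9% with a median of 15.3%. The difference was -59.5 points (SE 12.2, limma, adjusted p = 0.752). Aged ENR mice had 0% to 60.2%, and 4 of the 7 were at 0%. When limma used a single prior variance, it was the only one of the 13191 members called in this comparison (adjusted p = 0.0135, 0.00758% of the members, all CpGs 0.0227%). That setting called 0 of 13329 members (all CpGs 0.0049%) for Aged ENR minus Aged STD and 1 of 13133 (all CpGs 0.0176%) for Aged ENR minus Young STD.

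In Kcnab2, a potassium channel subunit gene, a member (chr4, position 152456923, minus strand) had 31.1%, 61.5%, 88.9%, 52.9% and 65.9% in Young STD mice and 0% to 27.8% with a median of 23.1% in Aged ENR mice, a difference of -42.7 points (SE 13.2, limma, adjusted p = 0.776). In Mmp17, a membrane metalloproteinase gene, a member (chr5, position 129590831, plus strand) had 0% to 2.33% in Young STD mice and 7.08% to 34.3% in Aged ENR mice, so that all Aged ENR mice were higher (adjusted p = 0.776). Aged STD mice spread there from 0% to 95.0%.

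Members and clusters of the listed genes did not pass the test either. Developmental transcription factors had 14 members with an unadjusted p under 0.05 and a lower level for Aged STD minus Young STD and 5 with a higher level, of 729 tested (limma, 0 called). Synaptic genes had 14 lower and 0 higher of 251, neurogenesis genes 6 and 2 of 240, axon guidance genes 7 and 2 of 192, chromatin regulators 4 and 0 of 84, glial genes 3 and 0 of 55 and imprinted genes 0 and 0 of 14. The medians of the differences were 1.19, -2.08, 0.159, -1.18, -2.02, 0.135 and 1.88 points in the same order, against -0.132 points over all members tested. For Aged ENR minus Aged STD, the counts with lower and higher levels were 7 and 10 of 775 for developmental factors, 0 and 5 of 250 for synaptic genes, 1 and 3 of 242 for neurogenesis genes, 2 and 8 of 191 for axon guidance genes, 1 and 1 of 83 for chromatin regulators, 1 and 0 of 55 for glial genes and 0 and 0 of 13 for imprinted genes. In Aged ENR minus Young STD they were 13 and 4 of 696 for developmental factors, 11 and 0 of 251 for synaptic genes, 5 and 2 of 228 for neurogenesis genes, 4 and 2 of 186 for axon guidance genes, 3 and 0 of 87 for chromatin regulators, 0 and 0 of 52 for glial genes and 0 and 0 of 13 for imprinted genes. Over all members, 390 were lower and 113 higher of 13191 in the first of these comparisons, 118 lower and 187 higher of 13329 in the second and 321 lower and 128 higher of 13133 in the third. The cluster of 5 cytosines in Prdm16, a histone methyltransferase and transcription factor, was measured in every mouse, with 76.7% ± 7.01 (SD, n = 5), 81.8% ± 18.7 (SD, n = 7) and 74.8% ± 7.57 (SD, n = 7) in the order Young STD, Aged STD, Aged ENR, and that of Nkx2-2, a factor of oligodendrocyte development, had 17.3% ± 14.3 (SD, n = 5), 9.47% ± 5.42 (SD, n = 7) and 8.05% ± 5.94 (SD, n = 7).

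The 4 clusters below varied most within groups among the 141 of at least 5 cytosines with a value in every mouse. Both clusters at 40% to 60% were among them and lay in Gm49692, a gene model of unknown role. The first (chr12:20234123-20234272, 18 cytosines) had 74.9%, 66.0%, 66.9%, 85.2% and 73.1% in Young STD mice, 6.13% to 84.1% with a median of 62.9% in Aged STD mice and 41.0% to 83.1% with a median of 59.1% in Aged ENR mice. Aged STD mice were 23.8 points lower than Young STD mice on average (SE 12.0, limma, adjusted p = 0.852), with Aged STD mice 3, 4 and 6 at 6.13%, 35.3% and 28.7% and the other 4 at 62.9% or more. The composition index of these 3 mice was the lowest of all, 19.6%, 20.8% and 19.5%, and with the index as a term the Aged STD minus Young STD difference was -5.49 points. The second cluster (chr12:20232843-20232950, 10 cytosines) had 4.69% and 9.01% in Aged STD mice 3 and 6 and 53.9% to 87.5% in the other 5, while Young STD mice had 33.9% to 68.3%.

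Clybl, which encodes a mitochondrial lyase, had a cluster of 10 cytosines (chr14:122227375-122227459) with 8.99%, 28.0%, 18.6%, 34.6% and 92.6% in Young STD mice. Aged STD mice had 0% to 50.1% with a median of 6.85% and Aged ENR mice 0% to 37.7% with a median of 12.1%. The Aged STD minus Young STD difference of -23.2 points had an SE of 13.4 (limma, adjusted p = 0.852), and without Young STD mouse 5 it was -9.23 points. In BC065403 (chr9:72393583-72393591, 5 cytosines), a gene model of unknown role, Young STD mouse 1 had 77.2% and the other 18 mice had 3.55% to 34.0%.

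**Figure D5:**
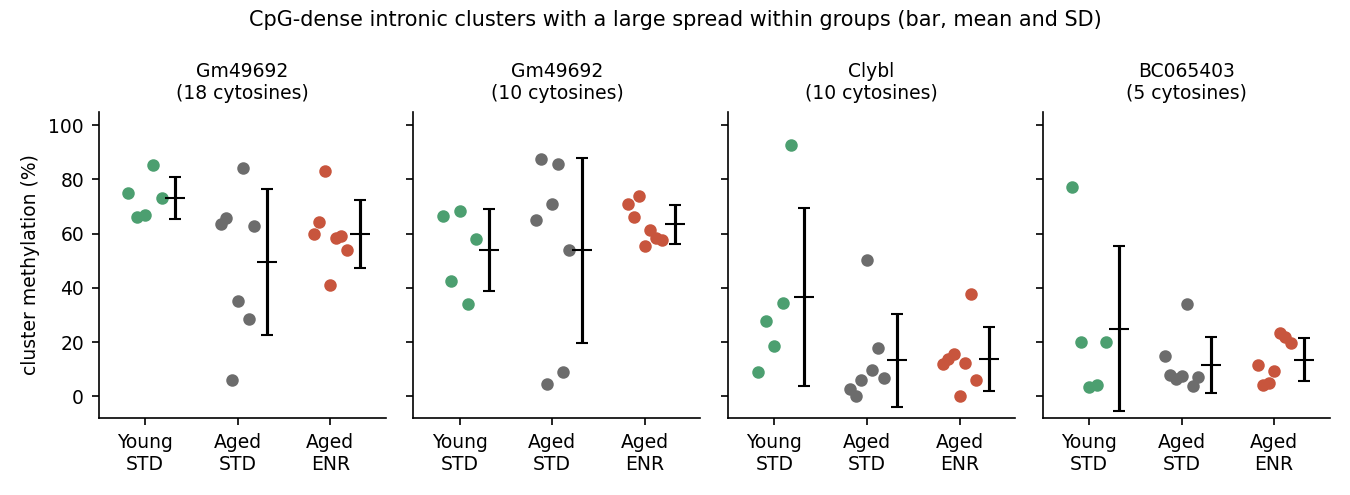
Methylation (%, y axis) of the 4 CpG-dense intronic clusters that varied most within groups, in each mouse (points), with bars for the group mean and SD for Young STD (5 mice), Aged STD (7) and Aged ENR (7). Single mice stand apart within a group, such as Young STD mouse 1 at 77.2% in BC065403 and Aged STD mouse 3 at 6.13% in the first Gm49692 cluster, and groups overlap in all panels.

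Values of single members at intermediate levels were coarse. Among the members between 20% and 80%, 32.3% of all values were exactly 0% or 100%, from 14.4% in Young STD mouse 2 to 60.6% in Aged STD mouse 4. Cytosines on the same strand within 30 bases differed within a mouse by a median of 10.3 points (999 pairs). The 2 strands of 1 CpG, which are read from separate molecules, differed within a mouse by a median of 24.1 points (129 pairs), close to the median of 26.2 points between mice of 1 group at the same cytosine. CpG-sparse intronic CpGs at these levels had medians of 14.6, 24.2 and 26.1 points. Read numbers behind each value are unknown, so no interval is given for a single value.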

How the data were processed

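RRBS libraries of single mice were made and processed by the authors, who trimmed reads, aligned them to mm10 using Bismark and took methylation calls in methylKit. Per the labels' processing notes the versions were Trim Galore 0.4.0, cutadapt 1.8.1, Bismark 0.16.1 and methylKit 1.5.2; the study's methods name later versions of Trim Galore and Bismark, and which were used is not settled here. The deposited table gives the percent of methylated reads per cytosine and mouse after a minimum of 10 reads, without read numbers, so depth is unknown; reads carry no molecular identifiers.

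Positions were annotated with GENCODE M21 and GRCm38, the build of mm10. limma 3.58.1 (R 4.3.3) was run on the percent scale over all CpGs, or clusters, with at least 3 mice per group, a trended prior variance and Benjamini-Hochberg adjustment; the code was tested on simulated data. Clusters were runs of at least 3 cytosines of one annotation class with no gap over 100 bases. A mouse's cluster value needed at least 3 measured cytosines and at least as many measured as missing. The replicate block, library series, composition index, logit scale, other filters and each mouse left out were alternatives.

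The members and lists were chosen with earlier results of these data known. Named clusters were the 5 with most cytosines, those of the 5 hosts with most members, the largest differences without overlap, up to 5 of the least variable at 40% to 60% (2 met this) and the 5 most variable, both among clusters of at least 5 cytosines with a value in every mouse, and the 3 genes with most members per list. Figures used Python 3.11.15 and matplotlib 3.10.9. Some genes that these rules select are not reported here.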

Additional observations from a re-analysis of the deposited data

Results flagged for a closer look

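Within groups of 4 to 10 mice, 12 of the 56 sets of values looked at had a mouse far from the others, where chance gives about 1 in 20. That rate cannot be set against this count, because Clybl and BC065403 were chosen for their spread and Gm12514 for its separation, and in clusters with nearly all mice at 0% or 100%, such as Pax7 and Usp29, a small departure is enough. In Clybl, Aged STD mouse 4 had 50.1% (next 17.8%) and Aged ENR mouse 6 had 37.7% (next 15.7%). In BC065403, Young STD mouse 1 had 77.2% (next 20.03%) and Aged STD mouse 5 had 34.0% (next 14.9%). In Gm12514, Young STD mouse 4 had 63.4% (next 49.3%).

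Among clusters of hosts with many members and of listed genes, Aged ENR mouse 1 had 30.98% in Bcor (next 6.21%), Young STD mouse 2 had 1.86% there (next 3.84%), and Aged STD mouse 2 had 26.1% in Rnf220 (next 7.07%). Aged STD mouse 6 had 3.21% in Pax7 (next 0.0853%), and Aged STD mouse 5 had 20.7% in Nkx2-2 (next 10.81%). In Usp29, Aged STD mouse 2 had 89.6% (next 97.6%) and Aged ENR mouse 6 had 99.1%, with the others at 100%. The causes were not tested.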

How the results depend on the processing

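The mean over members kept its direction under the alternatives run, except in Aged ENR minus Aged STD mice, where the composition index gave -0.116 points and the median over members 0. With 8 or more CpGs in the window the differences were -0.588, 0.00635 and -0.582 points, and over 2000 bases from every start they were -2.02, 0.494 and -1.52 points, in the order Aged STD minus Young STD, Aged ENR minus Aged STD and Aged ENR minus Young STD. The composition index gave -0.442 and -0.536 points in the first and last, and the median over members -0.345 in both. With all members measured in each mouse, so that mice differ in their CpGs, the differences were -5.69 (Aged STD minus Young STD), 3.04 (Aged ENR minus Aged STD) and -2.65 points (Aged ENR minus Young STD), against -1.33, 0.412 and -0.920. Leaving out each mouse in turn gave -1.73 to -0.826, 0.155 to 0.815 and -1.19 to -0.415 points. Same-numbered mice were not seen to deviate together (correlations over members of -0.087 to 0.077 over the 3 comparisons, with 1, 2 and 0 pairs best matched by their own number). Differently numbered mice had correlations of -0.135 to 0.137. Single values are coarse, so this check cannot exclude a pairing. Paired differences under the replicate block were -1.26, 0.412 and -1.24 points, and the block called 0 members and 0 clusters. A single prior variance called 1 member, in Nkain1, in Aged STD minus Young STD mice and 1, in Stk32a, in Aged ENR minus Young STD mice (0.00758% and 0.00761% of the members, against 0.0227% and 0.0176% of all CpGs); every other alternative, each mouse left out included (0 to 0), called 0 members and 0 clusters.

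The second Gm49692 cluster had no stable direction in Aged STD minus Young STD mice: -0.0873 points, but 0.193 with library series, 17.96 with the composition index, 8.85 with the replicate block and -5.71 to 8.10 with a mouse left out. Clybl ran from -3.37 to 6.73 points in Aged ENR minus Aged STD mice with a mouse left out, and BC065403 was -1.89 points there with the index (0.282 to 5.60 with a mouse left out) and -16.7 to 1.67 points in Aged ENR minus Young STD mice, positive only without Young STD mouse 1. Members with an unadjusted p under 0.05 went from 503 of 13191 to 302 of 12318 under the replicate block in Aged STD minus Young STD mice. All CpGs fell too, from 23304 of 527597 to 15518 of 495089. Member clusters went from 112 of 2125 to 73 of 1974, and all clusters from 4250 of 72540 to 3140 of 67744. The table has no read numbers, which limits what single values can show.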
